A study of Mus musculus with 6 samples.

Results

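The genes described are 37 genes of DNA replication and S phase, the part of the cell cycle in which the genome is copied. They were chosen by symbol, and the 37 rows with those symbols were read among the 32285 gene rows of each of the 6 count matrices. The libraries are droplet single-cell RNA libraries (10x Genomics, 3′ ends) of mouse small intestinal organoids, which are cultured epithelial structures that grow from intestinal stem cells, and all were taken at day 3. The study compared organoids with and without EIPA, and with and without Dox. Wild-type (WT) organoids were grown without EIPA (with DMSO, n = 2 libraries, -EIPA 1 and -EIPA 2) or with EIPA, a small-molecule inhibitor of ion transport (n = 2, +EIPA 1 and +EIPA 2), at 5 µM as the methods give it for organoid cultures. Organoids with an inducible CRISPR-Cas9 system were grown without Dox (n = 1) or with Dox, the drug that switches Cas9 on (n = 1, 2 µg/mL).

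Both CRISPR groups carry the lentiviral Cas9-EGFP and guide construct, made by infecting WT organoids and keeping clonal, antibiotic-selected organoids. The organoid stocks came from mice 10 weeks old. Live cells were sorted for 5 libraries and live GFP-positive cells for +Dox, so that sort and Dox cannot be told apart. Libraries with the same number are from the same experiment. The libraries held 12083 to 18211 cells each after filtering, with 161670015 to 239368573 unique molecular identifiers (UMIs, one per captured RNA molecule), and 33 to 78 cell barcodes were shared by any pair of libraries.

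DNA replication is prepared before it begins. In G1 the licensing factors Cdc6 and Cdt1 load the MCM helicase (Mcm2 to Mcm7) on replication origins, geminin (Gmnn) prevents them from being loaded again, and cyclin E (Ccne1, Ccne2) with its kinase drives entry into S phase, where Cdc45 and the GINS complex turn the loaded helicase on and polymerases, the sliding clamp PCNA and a supply of deoxynucleotides carry the copying out. Many of these genes are switched on together by the E2F transcription factors at the G1 to S transition. In the intestinal crypt, Lgr5-positive stem cells (ISC) and the transit-amplifying progenitors above them divide, while enterocytes, Paneth, goblet and tuft cells and most enteroendocrine cells (EEC) do not.

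The 37 genes fall into groups by role. The helicase group holds Mcm2 to Mcm7, Gins2 and Cdc45 (8 genes). Licensing holds Cdc6, Cdt1 and Gmnn (3), and cyclin E its 2 genes. The polymerase and clamp group holds Pola1 and Prim1 of the polymerase alpha-primase complex, Pold3, Pcna, the clamp loaders Rfc2 and Rfc3, the single-strand binding subunit Rpa2 and the flap nuclease Fen1 (8). The nucleotide group holds thymidylate synthase Tyms and the ribonucleotide reductase subunits Rrm1 and Rrm2 (3). The chromatin and histone group holds the histone chaperones Chaf1b and Nasp, the histone mRNA binder Slbp, and Uhrf1, Hells and Atad2 (6). The checkpoint and repair group holds Clspn, Tipin, Dtl, Usp1, the uracil glycosylase Ung, Exo1 and Rad51ap1 (7).

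Sequences around the starts of members are shown because the 37 genes had levels of the same direction against the controls over all cells kept. A RefSeq promoter window (GRCm38.p6, 250 bases before to 50 after the gene start) was given for 28 of the 37 members. The windows were searched on both strands for the 4 letter strings TTTCCCGC, TTTGGCGC, TTTCGCGC and TTTGCCGC, the forms in which the E2F site is usually written, and overlapping matches were all kept. At least one was found for 13 of the 28 members (46.4%), against 704 of the 27025 genes of the whole table (2.60%). Among 67 other replication genes with a window, 24 had one (35.8%). The letters CCAAT are a site common in cell cycle promoters. They were found on either strand for 19 of the 28 members (67.9%), 50.7% of those 67 genes and 41.1% of all genes. The 37 genes were chosen for their role in S phase, and a link of these letters to the shared direction was not tested. In the 250 bases before the starts of the 2 MCM genes below, and in the 30-base windows around the match nearest the start of 6 other members, capitals mark the E2F strings.
Mcm5, chr8:75109259-75109508, + strand: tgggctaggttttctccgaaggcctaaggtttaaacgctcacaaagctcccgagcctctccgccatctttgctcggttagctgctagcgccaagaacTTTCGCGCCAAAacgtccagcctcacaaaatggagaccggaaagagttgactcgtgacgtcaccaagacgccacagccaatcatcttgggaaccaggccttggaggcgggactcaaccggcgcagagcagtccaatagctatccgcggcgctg
Mcm6, chr1:128359706-128359955, - strand: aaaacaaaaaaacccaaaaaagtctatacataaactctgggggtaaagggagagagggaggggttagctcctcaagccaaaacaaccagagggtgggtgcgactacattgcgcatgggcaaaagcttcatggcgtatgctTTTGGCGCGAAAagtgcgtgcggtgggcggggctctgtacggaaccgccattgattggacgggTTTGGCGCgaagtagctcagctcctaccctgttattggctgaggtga
Cdc6: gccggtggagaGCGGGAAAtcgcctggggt
Cdt1: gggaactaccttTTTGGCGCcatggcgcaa
Dtl: cgtgacgtcagTTTGGCGCggagtttggcg
Hells: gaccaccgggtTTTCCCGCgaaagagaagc
Rfc3: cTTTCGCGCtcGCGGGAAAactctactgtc
Clspn: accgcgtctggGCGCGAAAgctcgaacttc
Mcm5 has a pair of overlapping strings, the nearer of which begins 149 bases before the start, and Mcm6 has 3 matches, the nearest 47 bases before it. A match describes letters only, and a window without one, as for Pcna, Rrm2 or Ccne1, says nothing about the factor.

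The cells of all 6 libraries were clustered together, with none of the 37 members among the genes used, into 21 clusters (numbered 0 to 20), and clusters were named from marker lists. The 2 proliferating clusters were 0, led by replication-dependent histone genes, Top2a and Mki67, and 4, led by mitosis genes. Cluster 3 was ISC-like. Cluster 1 kept no name, because its leading genes did not meet the naming rule for any marker list. Clusters 5, 8, 13, 16 and 18 kept none either. Of the 20 leading genes of cluster 1, 11 were among the 37, with Ung, Mcm3, Hells and Mcm4 in front. By the mean CPM of the 6 libraries, 25 members were highest in cluster 0, 9 in cluster 3 (Mcm2, Mcm3, Mcm4, Mcm6, Cdt1, Dtl, Ung, Hells and Rfc3) and 3 in cluster 1 (Cdc6, Ccne2 and Rpa2).

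The members were therefore not highest in the same cells. All 3 members of the nucleotide group were highest in cluster 0, while the helicase, licensing, cyclin E, polymerase, chromatin and checkpoint groups were each split between clusters. The log2 ratio of the level in cluster 0 to that in cluster 3 was taken in each library. It was above 0 in all 6 libraries for 20 members, below 0 in all 6 for 6 (Mcm2, Mcm4, Cdc6, Cdt1, Dtl and Ung) and of mixed sign for 11. It was largest for Rrm2, with a median of 1.38 and a range of 1.03 to 1.93 over the libraries. It was next largest for Rad51ap1 (median 1.20), Clspn (1.04) and Tyms (1.02). It was lowest for Ung, with a median of -1.51 and a range of -1.78 to -1.07, followed by Cdt1 (-0.83), Dtl (-0.79) and Cdc6 (-0.66). Within the helicase group the ratio went from -0.51 for Mcm2 and -0.44 for Mcm4 through 0.09 for Mcm7 to 0.97 for Cdc45, the factor that joins only when a helicase is switched on.

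**Figure D1:**
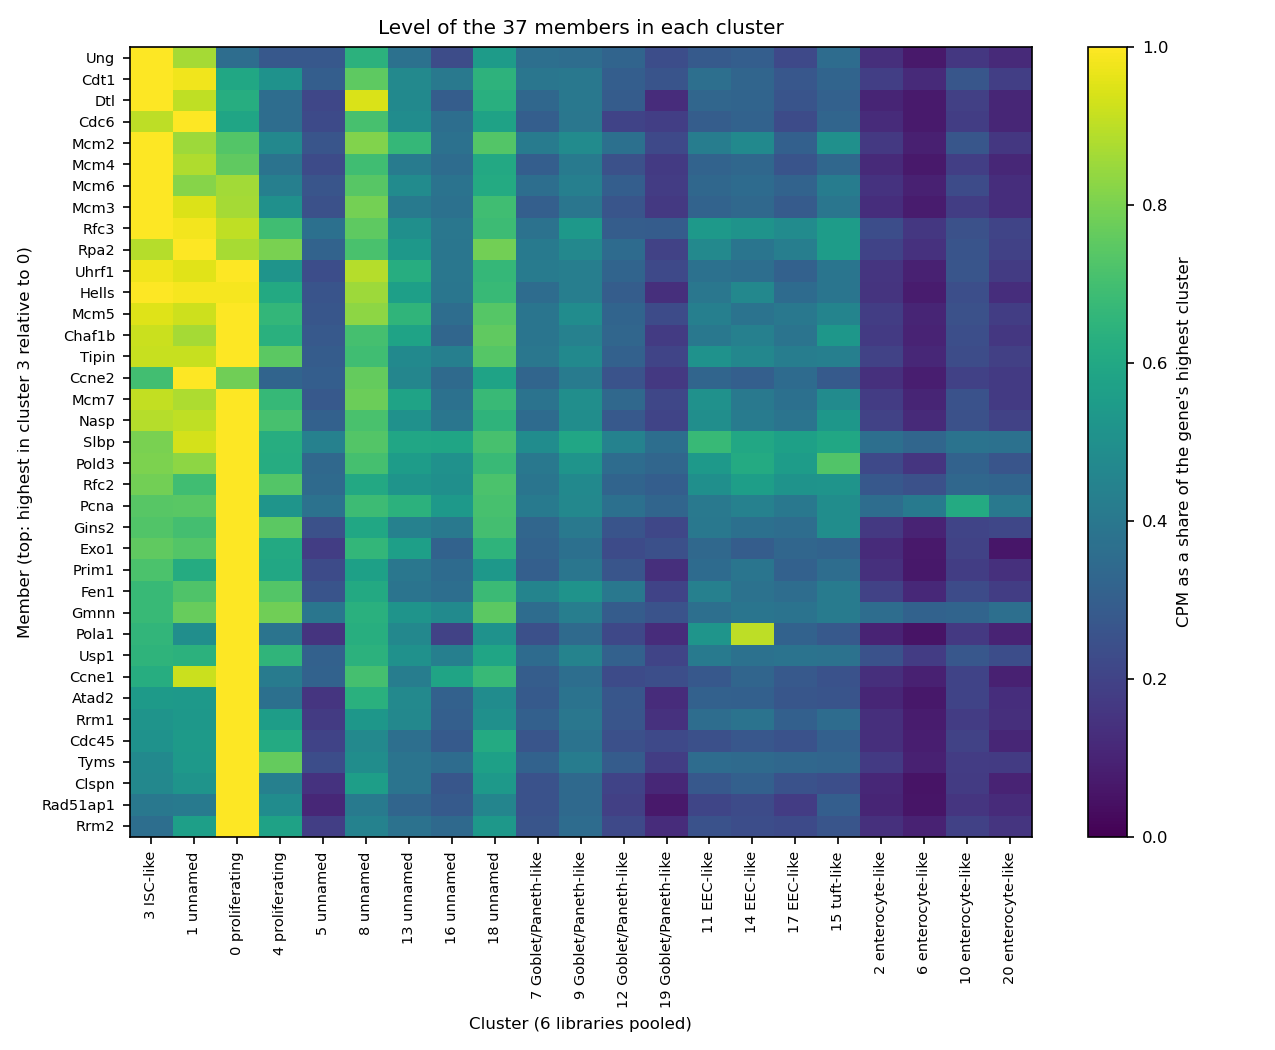
Level of each of the 37 members (rows) in each of the 21 clusters (columns), as a share of the gene's highest cluster on a scale of 0 to 1. Levels are the mean CPM of the 6 libraries, each weighted equally, which the x axis calls pooled. Genes are ordered by the log2 ratio of cluster 0 to cluster 3, from Ung (median -1.51) at the top to Rrm2 (median 1.38) at the bottom, and the highest values move from the ISC-like cluster 3 and cluster 1 to the histone-led cluster 0.

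From cluster 0 to the mitosis-led cluster 4, 35 of the 37 members were lower in all 6 libraries. The exceptions were Cdt1 (median log2 ratio of cluster 4 to 0 of -0.16, range -0.73 to 0.03) and Rpa2 (-0.04, range -0.37 to 0.01). The difference was large for the cyclin E genes (-1.31 for both), Atad2 (-1.38) and Pola1 (-1.38), and small for Gmnn (-0.32) and Tyms (-0.36). Geminin is known to be kept through G2.

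The spread over clusters differed from member to member. By the mean CPM of the 6 libraries, the highest cluster had 19.5 times the level of the lowest for Clspn. The ratio was 18.6 for Pola1 and 17.7 for Rad51ap1, but only 3.03 for Slbp, 3.05 for Pcna and 3.88 for Gmnn. The lowest cluster was the enterocyte-like cluster 6 for most members. Pcna had 224 counts per 1000000 UMIs (CPM) in cluster 0 and 92.2 CPM in cluster 6, whereas Clspn had 75.0 and 3.84 CPM. Low levels can hold free RNA from other cells of the droplet suspension: the 15 Paneth markers had 726 to 3080 CPM in enterocyte-like cells, and the part of free RNA in the members' low levels was not tested. These are 3′ counts of UMIs, so levels are compared between cells for one gene and not between genes.

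Summed over the 37 members, the level was 2199 to 3038 CPM in ISC-like cells of the 6 libraries, 2439 to 2979 CPM in cluster 1 and 2473 to 3127 CPM in proliferating cells. It was 1062 to 1607 CPM in Goblet/Paneth-like cells, 1107 to 1703 CPM in EEC-like cells, 1120 to 1869 CPM in tuft-like cells and 520 to 796 CPM in enterocyte-like cells. Cluster 1 was picked for its leading members, so its high level follows from that choice. Among the other unnamed clusters, 8 and 18 had 2178 to 2473 CPM and 1982 to 2323 CPM. Clusters 5, 13 and 16 had 695 to 1282 CPM, 1457 to 2000 CPM and 950 to 1835 CPM. Cluster 16 was led by Lgals3, Clu and S100a6. Cluster 8 was led by Kcnq1ot1 and mitochondrial genes, 18 by Gm26917 and Rmrp, and 13 by Gm42418 and Lars2. Cells of clusters 8, 18 and 13 were shallow, with a median of 0.47, 0.55 and 0.28 times the median UMIs of their library. The ISC-like and proliferating cells lay above all secretory classes in every library. Enterocyte-like cells lay below every other class in every library. The 27 proliferating markers did not set ISC-like cells apart in that way, with 2161 to 2963 CPM in ISC-like, 2411 to 3379 CPM in Goblet/Paneth-like, 2445 to 3324 CPM in EEC-like and 7619 to 8069 CPM in proliferating cells. Within the Goblet/Paneth-like class the goblet-led cluster 9, whose leading genes include Atoh1 and Dll1 of early secretory cells, had 1309 to 1817 CPM, and the other goblet-led cluster, 19, had 530 to 899 CPM. The Paneth-led clusters 7 and 12 had 1018 to 1470 CPM and 679 to 1557 CPM. The EEC-like clusters 11, 14 and 17 had 1126 to 1662 CPM, 1166 to 1570 CPM and 946 to 1989 CPM, and their ranges overlapped. In EEC-like cells the 22 EEC markers had 39582 to 48895 CPM in the WT libraries, but 5014 CPM in -Dox and 5755 CPM in +Dox.

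**Figure D2:**
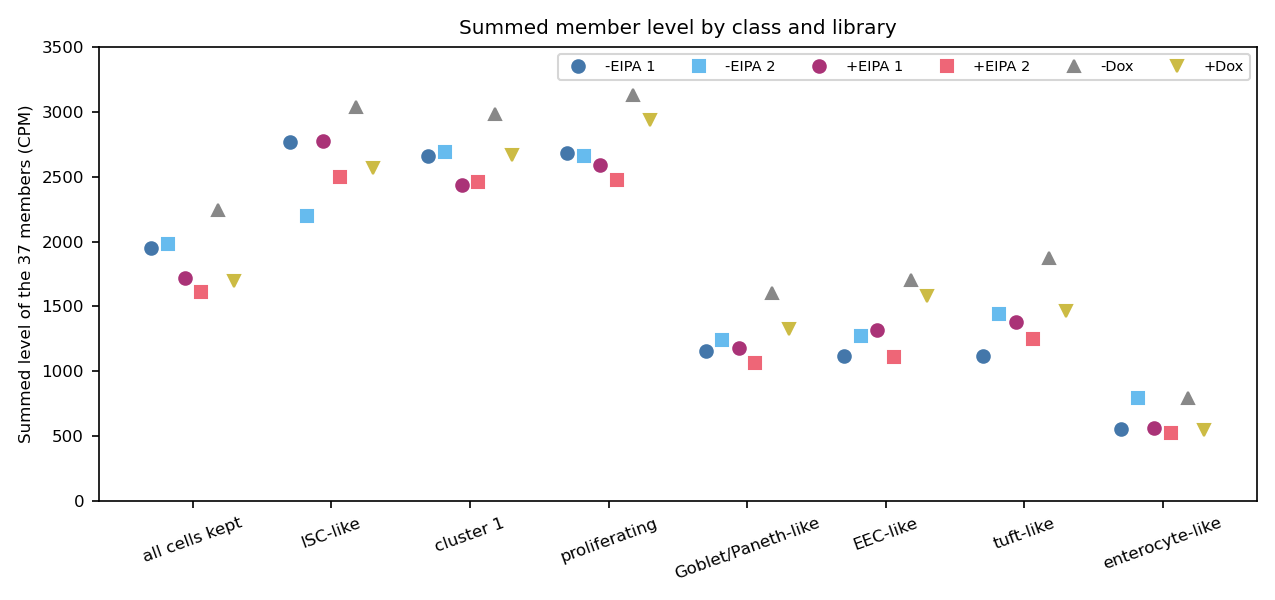
Summed level of the 37 members in CPM (y axis, from 0) in each class (x axis), with 1 point per library. The ISC-like, cluster 1 and proliferating points lie between 2199 and 3127 CPM, the enterocyte-like points between 520 and 796 CPM, and in the ISC-like class -EIPA 2 is the lowest of the 6 libraries.

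With EIPA, every one of the 37 members was lower over all cells kept, in both experiments, but no single gene passed the test. Their summed level was 1953 CPM in -EIPA 1 and 1979 CPM in -EIPA 2, and 1716 CPM in +EIPA 1 and 1612 CPM in +EIPA 2. Both treated libraries lay below both untreated ones. Of all genes, values lower in both experiments were seen for 52.1% of the 15880 genes with unique symbols that entered the same fit, on the same CPM scale, on which the median of all genes was itself shifted by -0.06 in experiment 1 and -0.11 in experiment 2. The median log2 ratio of the members was -0.18 in experiment 1 and -0.31 in experiment 2. In the edgeR quasi-likelihood fit with TMM scaling (2 libraries against 2), all 37 fitted log2 fold changes were below 0, with a median of -0.16, where 50.7% of all 15890 genes were below 0 and their median was -0.003. None of the 37 members was called at an adjusted p under 0.05, and 0.00% of all genes were. In that fit 9 members had an unadjusted p under 0.05 (10.1% of all genes did), and DESeq2 also called none of the 37 (3.92% of all genes). With the experiment as a block 0 members were called, while 4.47% of all genes were called higher and 0.812% lower. The smallest blocked value was that of Clspn, with an adjusted p of 0.0529 by edgeR. In these sums of all cells, fewer cells of a type and less RNA per cell cannot be told apart.

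Members of each role but checkpoint and repair, which has no representative here, show the size of this. Mcm5, a subunit of the helicase (chr8:75109569-75128439, GRCm38), stood at 47.2 and 43.5 CPM in -EIPA 1 and 2, against 40.1 and 34.3 CPM in +EIPA 1 and 2. The fitted log2 fold change was -0.20 ± 0.09 (SE, n = 2 libraries per group), with an adjusted p of 0.564 by edgeR. Cdc6 (chr11:98907801-98923940) had 14.02 and 15.5 CPM without and 12.4 and 12.1 CPM with EIPA. Cdt1 (chr8:122568015-122573554) had 25.04 and 22.4 CPM without and 21.9 and 19.1 CPM with EIPA. For both licensing factors the treated libraries lay below the untreated ones, with Cdt1 in +EIPA 1 close to that in -EIPA 2.

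Ccne1 (chr7:38097984-38107534) had 14.9 and 16.7 CPM without and 13.0 and 13.6 CPM with EIPA. Pcna (chr2:132249162-132253314) had 138 and 145 CPM without and 129 and 130 CPM with EIPA, one of the smallest differences of the 37. Rrm2 (chr12:24708241-24714146) had 46.1 and 50.6 CPM without and 39.4 CPM in each library with EIPA. In all 3 genes the groups did not overlap. The share of all genes whose groups lay apart was not counted. No result is read from this for these genes or for the licensing factors. Uhrf1, which couples DNA methylation to replication (chr17:56303321-56323486), had 40.02 and 39.1 CPM without and 34.8 and 26.9 CPM with EIPA. Gmnn (chr13:24751845-24761923) had 102 and 115 CPM without and 91.7 and 97.5 CPM with EIPA. Across the 37 members the fitted log2 fold change ran from -0.28 for Mcm4 to -0.01 for Mcm2, the helicase subunit that moved least. By role, the medians were -0.20 for the helicase and -0.20 for the nucleotide group, -0.19 for chromatin and histones, -0.17 for checkpoint and repair, -0.15 for polymerases and clamp, -0.13 for licensing and -0.13 for cyclin E.

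The share of cells that carry many member UMIs was lower as well. Each cell was thinned to 3000 UMIs so that depth was equal, and 267 to 906 shallower cells per library were left out. Cells with 10 or more member UMIs made up 20.1% (95% exact binomial interval 19.4 to 20.8) of -EIPA 1 and 19.4% (18.8 to 20.002) of -EIPA 2. They made up 17.3% (16.6 to 18.0) of +EIPA 1 and 15.4% (14.8 to 16.0) of +EIPA 2. Without thinning, the same 4 libraries gave 57.4%, 59.2%, 52.8% and 54.5%, and their cells held a median of 11947.5, 11858, 11477.5 and 14467 UMIs. The thinned shares, treated over untreated, gave 0.862 for the first pair of libraries and 0.792 for the other (mean 0.827 ± 0.0495, SD, n = 2 experiments). With 2 libraries a group no two-sided exact permutation p can fall below 0.333, so none is given. In the enterocyte-like cells, which should not replicate, the share was 0.542 to 2.09% over the 6 libraries at median depths of 11138 to 16932 UMIs. The intervals cover counting error only, and 7.04 to 10.3% of cells lay within 1 UMI of the limit of 10.

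**Figure D3:**
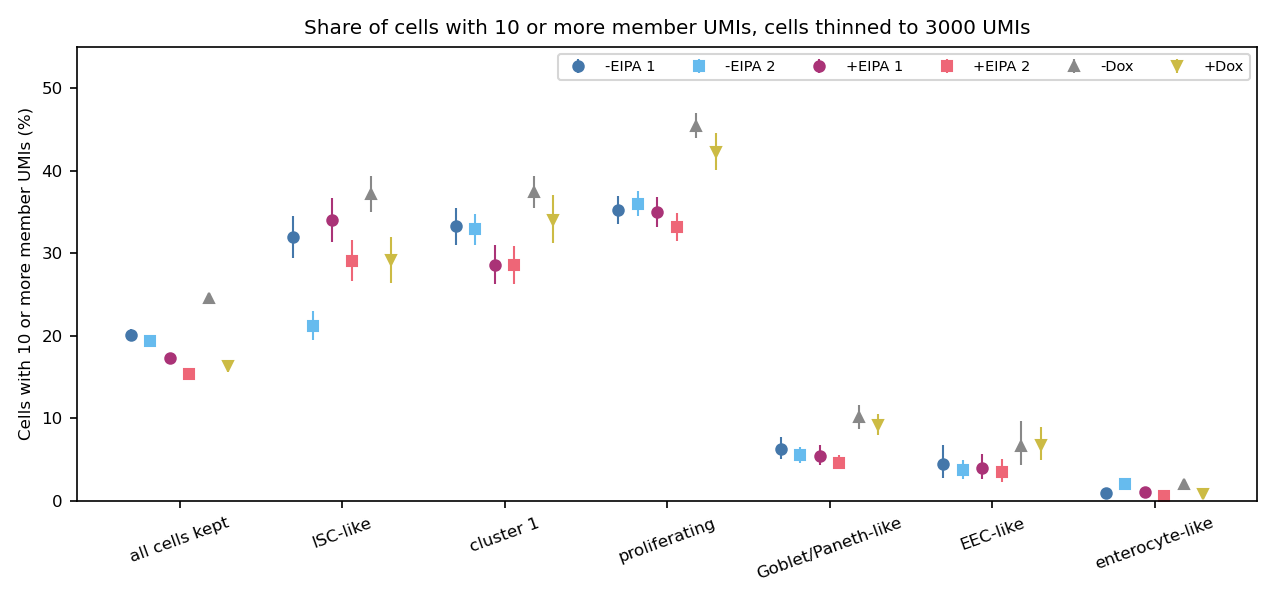
Percent of cells with 10 or more member UMIs after thinning each cell to 3000 UMIs (y axis), by class (x axis) and library, with 95% exact binomial intervals as bars. Over all cells kept the untreated WT libraries stand at 20.1 and 19.4% and the EIPA libraries at 17.3 and 15.4%, and in the ISC-like class -EIPA 2 stands alone at 21.2%.

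Cell type markers moved with the same libraries. Over all cells kept the summed level of the 21 enterocyte markers was 9211 and 5182 CPM in -EIPA 1 and 2, against 15982 and 14091 CPM in +EIPA 1 and 2, and that of the 15 Paneth markers was 7165 and 12230 CPM without and 9982 and 24660 CPM with EIPA. The 27 proliferating markers had 4199 and 4313 CPM without and 3678 and 3643 CPM with EIPA. Proliferating cells were 24.3 and 21.5% of the untreated and 20.9 and 20.6% of the EIPA libraries. When each library's level was rebuilt with the same share of UMIs for each of the 21 clusters, the members' median log2 ratio was -0.02 in experiment 1 and -0.16 in experiment 2, with a mean of -0.09. In that form 29 members were lower in experiment 1 and 36 in experiment 2, but the share of all genes was not computed. Before this rebuilding the median of all genes on the CPM scale was -0.06 in experiment 1 and -0.11 in experiment 2. The 2 counts are therefore not read as a result about the members.

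Within ISC-like cells the members were not lower with EIPA. The cells compared here were grouped after Harmony correction. Without it, WT cells of the ISC-like clusters separated by treatment, with 1072 and 2570 cells of -EIPA 1 and 2 but 181 and 72 cells of +EIPA 1 and 2 in one cluster, and 229 and 68 against 2121 and 2708 cells in another. Of the 37, 36 had fitted log2 fold changes above 0 (49.0% of the 11886 genes tested did), with a median of 0.16. None was called by edgeR without a block (0.00% of all genes) or by DESeq2 (0.201% of all genes), and 2 had an unadjusted p under 0.05 (3.70% of all genes did). With the experiment as a block, 11 members were called higher (3.71% of all genes were called higher): Mcm2, Mcm5, Mcm6, Mcm7, Pcna, Rfc3, Rpa2, Rrm2, Hells, Dtl and Usp1. Mcm2 had the smallest value, a log2 fold change of 0.35 ± 0.08 (SE) and an adjusted p of 0.000205 by edgeR with the block. Its levels were 47.1 and 35.6 CPM in -EIPA 1 and 2, against 53.1 and 46.7 CPM in +EIPA 1 and 2, so that each treated library lay above the untreated one of its own experiment while the groups overlapped. Pcna followed, with 167 and 148 CPM without and 178 and 175 CPM with EIPA, which did not overlap. Its blocked log2 fold change was 0.24 ± 0.06 (SE), adjusted p = 0.00122 by edgeR.

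The fitted size in the ISC-like cells moved with -EIPA 2. The summed level was 2765 CPM in -EIPA 1, 2199 CPM in -EIPA 2, 2774 CPM in +EIPA 1 and 2498 CPM in +EIPA 2, and -EIPA 2 was the lowest of the 6 libraries. The median log2 ratio of the members was 0.03 in experiment 1 and 0.19 in experiment 2, where the medians of all genes were -0.07 and -0.07, and 20 members were higher in both (18.0% of all genes were). Without -EIPA 2 the fitted median was -0.0001, and without -EIPA 1 it was 0.31. The ISC-like cells of -EIPA 2 also had the highest level of Olfm4 among the WT libraries, 6508 CPM against 4899, 4345 and 4604 CPM in -EIPA 1, +EIPA 1 and +EIPA 2, and 17 ISC markers together had 8678 CPM against 6865, 6088 and 6535 CPM. The part of this difference in the members' result was not tested. The share of ISC-like cells with 10 or more member UMIs was 32.0% and 21.2% without EIPA and 34.0% and 29.1% with EIPA.

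In ISC-like cells -EIPA 2 was the lowest WT library for all 8 representatives, while the highest one differed. Mcm5 had 71.6 and 51.3 CPM without and 73.3 and 60.3 CPM with EIPA, and Cdt1 had 49.4 and 32.9 CPM without and 45.2 and 41.3 CPM with EIPA. Cdc6 had 27.5 and 23.3 CPM without and 26.7 and 27.8 CPM with EIPA. Ccne1 had 17.2 and 15.3 CPM without and 17.6 and 18.7 CPM with EIPA, with a fitted change of 0.24 ± 0.12 (SE, log2) and an adjusted p of 0.996 by edgeR. Rrm2 had 36.0 and 30.02 CPM without and 41.9 and 34.5 CPM with EIPA. Uhrf1 had 69.5 and 47.3 CPM without and 66.4 and 47.4 CPM with EIPA, and its fitted log2 fold change of 0.03 turned to -0.04 when libraries were scaled by their size alone. Gmnn had 108 and 103 CPM without and 112 and 110 CPM with EIPA.

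**Figure D4:**
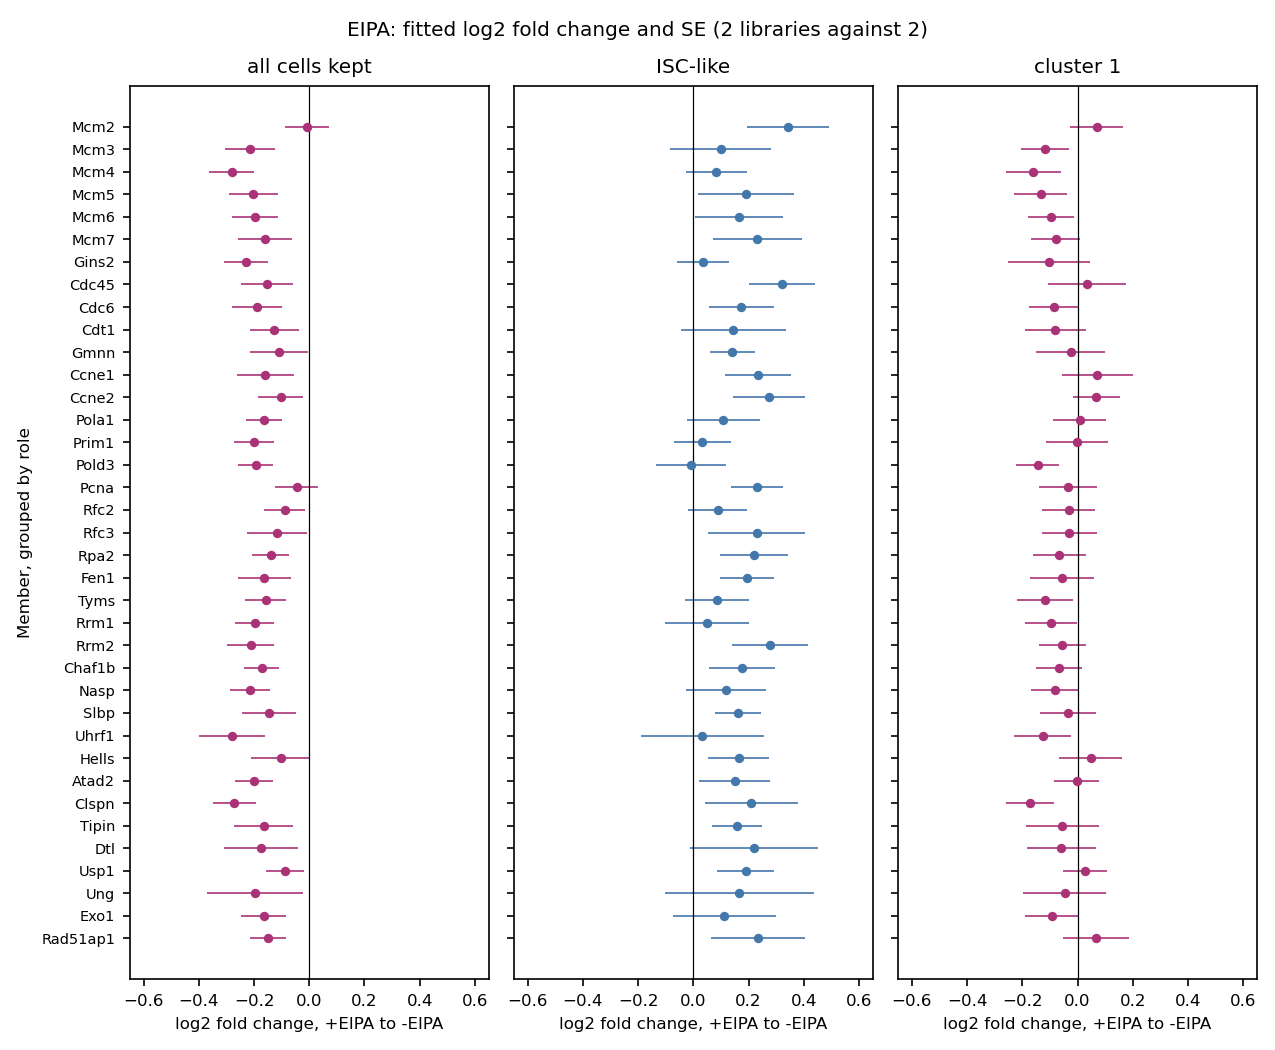
Fitted log2 fold change of each member with EIPA (x axis) with its standard error (bars), by edgeR on 2 libraries against 2, in all cells kept, in ISC-like cells and in cluster 1. The points lie below 0 for 37 of 37 members in all cells kept, above 0 for 36 in ISC-like cells and below 0 for 29 in cluster 1, and no member was called in these fits.

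In cluster 1 and in proliferating cells the members' levels were slightly lower, on a CPM scale where the median of all genes was lower too. In cluster 1, which they lead, the summed level was 2662 and 2687 CPM in -EIPA 1 and 2, against 2439 and 2456 CPM in +EIPA 1 and 2, and the groups did not overlap. There 30 members were lower in both experiments (48.8% of all genes were). Their median log2 ratio was -0.10 in experiment 1 and -0.11 in experiment 2, on a scale where the median of all genes was -0.06 and -0.08. The edgeR fit, which removes that shift, gave a median of -0.06 with 29 below 0 (50.1% of all genes), and 0 called (0.00% of all genes, unadjusted p under 0.05 for 0 members, 0 by DESeq2). That median stayed below 0 but changed in size with the library left out, as given under the dependence on processing. The share of cluster 1 cells with 10 or more member UMIs was 33.3% and 32.9% without EIPA and 28.6% and 28.5% with EIPA, a ratio of 0.860 in experiment 1 and 0.868 in experiment 2. In proliferating cells the summed level was 2679 and 2657 CPM without and 2588 and 2473 CPM with EIPA, 28 members were lower in both experiments (49.2% of all genes). The members' median log2 ratio was -0.06 in experiment 1 and -0.12 in experiment 2, against -0.06 and -0.06 over all genes, and the fitted median was -0.03 with 24 below 0 (50.7% of all genes) and 0 called (0.00% of all genes).

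The summed levels of the secretory and absorptive classes gave no common direction. In Goblet/Paneth-like cells the members had a median log2 ratio of 0.02 in experiment 1 and -0.24 in experiment 2, and 0 were called (0.246% of all genes were). In EEC-like cells the 2 values were 0.21 and -0.20, with 0 called (0.0163% of all genes), and in tuft-like cells, which were not fitted, 0.33 and -0.16. The share of cells with 10 or more member UMIs gave treated to untreated ratios of 1.04 and 0.975 in goblet-led, 0.792 and 0.786 in Paneth-led and 0.890 and 0.943 in EEC-like cells, with overlapping counting intervals in each pair of libraries. With 5 or more UMIs the Goblet/Paneth-like share was 18.4 and 20.6% in experiment 1 (-EIPA, +EIPA) but 21.4 and 17.1% in experiment 2, and the EEC-like share 17.4 and 20.2% but 16.5 and 13.7%, so no direction is read from these classes. Tuft-like cells with 10 or more member UMIs numbered only 4 to 13 per WT library. In enterocyte-like cells the summed level was 556 and 796 CPM in -EIPA 1 and 2, against 560 and 520 CPM in +EIPA 1 and 2, with 0 called (0.0551% of all genes). There 35 fitted log2 fold changes were below 0 (54.0% of all genes) with a median of -0.31, but -EIPA 2 alone stood high. In these cells -EIPA 2 had 27372 CPM of enterocyte markers, against 42390, 59741 and 60109 CPM in -EIPA 1, +EIPA 1 and +EIPA 2. Its proliferating markers had 1549 CPM, against 949, 950 and 886 CPM. The part of these differences in the members' result was not tested. Without -EIPA 1, which left -EIPA 2 as the only untreated library, 8 members were called lower (3.58% of all genes in that fit; median -0.58), and without -EIPA 2 the median was 0.06. The lone library is assumed to vary like the others.

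The EIPA effect in Goblet/Paneth-like cells was also set against that in ISC-like cells in one fit, with the library as a block. The difference, Goblet/Paneth-like minus ISC-like, was below 0 for 36 of 37 members (51.7% of all genes), with a median of -0.19. It was called for 0 members (0.253% of all genes). It had an unadjusted p under 0.05 by edgeR for 6 members and for 1211 of the 12634 genes tested. It was called for 24 members without -EIPA 1 (5.08% of all genes in that fit) and for 0 without -EIPA 2, where its median was 0.07.

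Of the 79 other replication genes in a list of the pathway, 74 had fitted log2 fold changes below 0 in all cells kept (median -0.15, against 50.7% of all genes below 0) and 68 above 0 in ISC-like cells (median 0.12, against 49.0% of all genes above 0), and 0 were called in either fit. With the experiment as a block, 8 were called higher in ISC-like cells (3.71% of all genes were), led by Pclaf, the PCNA-associated factor (log2 fold change 0.30 ± 0.06, SE, adjusted p = 2.06e-05 by edgeR), with Rnaseh2a (0.29), Dbf4, the activator of the Cdc7 kinase (0.31), and Asf1b, a histone chaperone (0.38). In all cells kept, the blocked fit called the repressor E2f8 (-0.41) and E2f2 (-0.33) lower (0.812% of all genes) and Pold4 higher (0.73, with 4.47% of all genes).

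With Dox all 37 members were lower over all cells kept, in the only pair of libraries. There is no replicate, so no test was made. The summed level was 2243 CPM without and 1699 CPM with Dox. All 37 log2 ratios of +Dox to -Dox were below 0 (56.6% of the 12136 genes with 100 or more UMIs in both libraries were), with a median of -0.43 where the median of all those genes was -0.05. A level lower by 1.25-fold or more was seen for 30 members and for 14.5% of those genes. The largest was that of Ccne2, with 21.5 CPM without and 13.3 CPM with Dox (log2 ratio -0.69, 95% exact counting interval -0.76 to -0.63). Mcm3 had 59.8 and 39.2 CPM (-0.61, -0.65 to -0.57) and Mcm4 had 47.8 and 32.0 CPM (-0.58, -0.62 to -0.54). The smallest differences were those of Rfc2, with 74.2 and 66.04 CPM (-0.17), Ung, with 32.8 and 27.8 CPM (-0.24), and Slbp, with 123 and 102 CPM (-0.27). The intervals cover counting error only and say nothing of how 2 cultures differ.

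The other representatives lay between these. The log2 ratio was -0.41 for Mcm5, with 40.1 CPM without and 30.1 CPM with Dox, and -0.54 for Cdc6, with 14.5 and 9.96 CPM. It was -0.40 for Cdt1 (22.7 and 17.3 CPM), -0.43 for Ccne1 (16.7 and 12.4 CPM) and -0.45 for Rrm2 (61.9 and 45.3 CPM). Uhrf1 had 40.2 and 27.9 CPM (-0.53). Pcna had 148 and 123 CPM (-0.28) and Gmnn 110 and 85.8 CPM (-0.36), the smallest differences among the 8.

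Within classes the size differed. The members' median log2 ratio was -0.26 in ISC-like cells (37 of 37 below 0, 63.3% of all genes), -0.17 in cluster 1 (30 below 0, 64.2% of all genes) and -0.11 in proliferating cells (29 below 0, 59.5% of all genes), with medians over all genes of -0.06, -0.08 and -0.05. It was -0.29 in Goblet/Paneth-like cells (36 below 0, 73.8% of all genes) and -0.79 in enterocyte-like cells (37 below 0, 60.7% of all genes), against -0.13 and -0.10 over all genes. The enterocyte-like class held 2375 cells of cluster 2 and 1082 of cluster 6 in -Dox, but 1570 and 1448 in +Dox. Its enterocyte markers had 39621 CPM in -Dox and 65674 CPM in +Dox, and its proliferating markers 1243 and 731 CPM. The part of these differences in the members' value was not tested. In EEC-like cells the median was -0.09 with mixed signs (27 members below 0 and 10 above), against -0.03 over all genes. There only 17 members had 100 or more UMIs in both libraries, and the share of all genes below 0 is not given. In tuft-like cells only 1 member had so many UMIs. Ccne2 was the lowest member in proliferating cells (25.3 and 19.4 CPM, log2 ratio -0.39) and in cluster 1 (-0.56). Dtl was the highest in proliferating cells, at 0.09. Rebuilt with the same share of UMIs for each cluster, the median over all cells was -0.17. Proliferating cells were 23.6% of -Dox and 16.2% of +Dox, the 27 proliferating markers had 4236 and 3161 CPM, and the 21 enterocyte markers had 10679 and 22242 CPM. Cells with 10 or more member UMIs at 3000 UMIs made up 24.5% of the -Dox library (95% exact interval 23.9 to 25.2) and 16.3% of the +Dox library (15.6 to 16.97). Without thinning the values were 61.1% and 53.4%, with a median of 11952 and 17020 UMIs per cell.

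**Figure D5:**
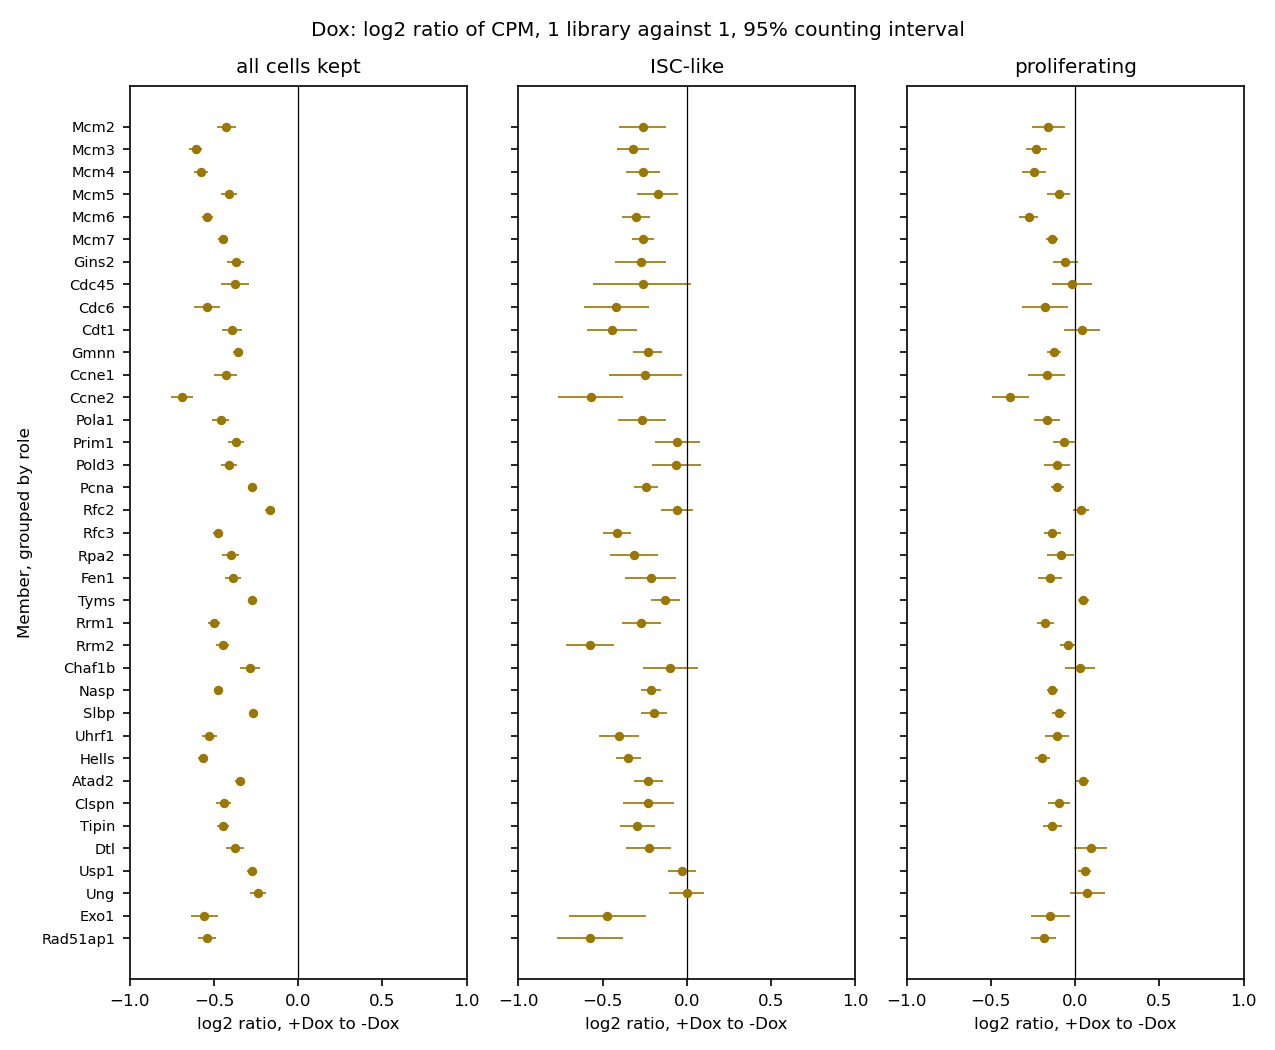
Log2 ratio of each member's CPM in +Dox to -Dox (x axis), 1 library each, with 95% exact counting intervals as bars, in all cells kept, ISC-like cells and proliferating cells. In all cells kept the 37 points lie between -0.69 and -0.17, and in proliferating cells between -0.39 and 0.09.

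EIPA and Dox did not share controls. The edgeR fit, which takes out the shift of all genes, gave EIPA medians of -0.16 over all cells, 0.16 in ISC-like and -0.03 in proliferating cells. The CPM ratios keep that shift. On the CPM scale the EIPA values (mean of the medians of the 2 experiments) were -0.25, 0.11 and -0.09. The Dox medians on the same scale were -0.43, -0.26 and -0.11. The -Dox library also differed from the -EIPA libraries, which were grown with DMSO. There is no replicate of -Dox, so the line, the culture and the DMSO cannot be told apart as sources of this difference. The summed member level of -Dox was the highest of the 6 libraries in all cells kept and in each class but the enterocyte-like one, where -EIPA 2 had 796 CPM and -Dox 794 CPM. Atad2, a chromatin factor of dividing cells, had 101 CPM in -Dox against 55.6 and 56.6 CPM in the -EIPA libraries. Slbp had 123 CPM against 73.3 and 81.6 CPM, while Cdc6 had 14.5 CPM against 14.02 and 15.5 CPM. The share of all genes that differed as much is not given.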

How the data were processed

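The authors deposited, for each of 6 libraries, a matrix of counts of UMIs per gene and cell, made with Cell Ranger 6.1.2 on mm10 per the submitters' processing notes, with no normalization. A cell was kept if it had 1000 genes or more and a mitochondrial share of UMIs under 20%, which left 87954. They were clustered on Pearson residuals of 3000 variable genes, none of them among the 37 members, with 45 principal components. Harmony correction over libraries was done with code written for this purpose, not with the published package. Neighbours (20 per cell) came from scikit-learn 1.9.0 and clusters from igraph 0.11.9 (Leiden method, resolution 0.8). Classes were named from marker lists. Doublets were left in. Removal of the 10% of cells with the highest Scrublet scores (scanpy 1.11.5) per library was an alternative, since the automatic call marked 0 cells of -EIPA 1.

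Counts were summed per library and class, since cells are not replicates. EIPA was tested with edgeR 4.0.16 (quasi-likelihood, TMM, filterByExpr, R 4.3.3) on 2 libraries against 2, with Benjamini-Hochberg adjustment over all genes tested and a threshold of 0.05. All 37 members passed the filter in each fit. DESeq2 1.42.0, other scalings, filters, clusterings and cell limits and each library left out in turn were alternatives. The fits were tested on simulated data. The experiment (replicate number) was added as a block in an alternative. The pairing comes from the study's account of its experiments. After subtraction of group means the libraries that share a number correlated across genes, at 0.45 to 0.73 over the classes. The members' median difference, number 1 minus number 2 (log2 CPM), was 0.27 in -EIPA and 0.11 in +EIPA in ISC-like cells. In cluster 1 it was -0.08 and -0.09. Its sign differed between -EIPA and +EIPA in every other class fitted and over all cells kept (-0.05 and 0.03). The p-values of the fit without a block measure the spread between libraries of the same group. Those with the block measure what is left after the difference between experiments is taken out. Dox has 1 library per group and was not tested. CPM are counts per 1000000 UMIs of the cells summed. The gene targeted in the CRISPR line is not reported here. Promoters were taken from RefSeq (GRCm38.p6).

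The members and gene lists were chosen with earlier results of these data known. Values in every library are given for 8 members, none of them from the checkpoint and repair group, and for members at the ends of a range. Atad2 and the members named with the block were chosen after their values were seen.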

Additional observations from a re-analysis of the deposited data

Results flagged for a closer look

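The summed level of the 37 members had ratios of opposite sign with EIPA in different classes. In ISC-like cells the mean log2 ratio of treated to untreated over the 2 experiments was 0.0944, with 0.0049 in experiment 1 and 0.184 in experiment 2. In proliferating cells it was -0.0764, and in cluster 1 it was -0.128, with both experiments below 0 in each. These were picked out because both experiments went one way in one class and the other way in the other, and the difference between the classes was not tested. In experiment 1 the ISC-like value was close to 0. On this CPM scale the median of all genes was itself below 0, at -0.065 and -0.071 in ISC-like cells, -0.057 and -0.065 in proliferating cells and -0.063 and -0.081 in cluster 1 in experiments 1 and 2, so the proliferating value is near that shift.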

How the results depend on the processing

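In ISC-like cells the replicate block (experiment) called 11 of the 37 members higher (441 of 11886 genes), against 0 without it. With the highest doublet scores also removed it called 10 (453 of 11858 genes were called higher). The block changed no other call of a member, but with the highest doublet scores removed it called 1 member in all cells kept (Clspn; 1156 of 15630 genes), 1 in proliferating cells (Mcm2, higher; 1314 of 13057) and 1 in enterocyte-like cells (Clspn; 1356 of 12310). Without the filter on low counts 1 member (Mcm4) was called in enterocyte-like cells (1227 of 19048 genes). Leaving out 1 library at a time gave 0 to 8 members called in enterocyte-like cells (0 to 1400 genes) and 0 to 24 (32 to 667 genes) for the difference between Goblet/Paneth-like and ISC-like cells, where clustering without Harmony gave 5 (1566 of 13195 genes). The same step moved the median log2 fold change from -0.0001 to 0.315 in ISC-like cells and from -0.0981 to -0.0153 in cluster 1. Scaling by library size gave medians of -0.0888 in proliferating cells and -0.128 in cluster 1. In ISC-like cells Mcm5 went from -0.0245 without -EIPA 2 to 0.440 without -EIPA 1, Cdt1 from -0.116 to 0.454 likewise, and Uhrf1 from -0.218 without +EIPA 1 (-0.217 without -EIPA 2) to 0.324 without -EIPA 1. Uhrf1 was also below 0 by library size (-0.0361), without Harmony (-0.0169) and with cell cycle genes kept out of the clustering (-0.118). The ratio of shares was 0.685 for 20 or more UMIs and 0.920 without thinning. The Dox median was -0.226 with classes weighted equally and -0.171 at the same cluster shares. Except for what the construction of a setting changes, the cause was not tested.

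Over all genes, counts of calls depended on the fit. In all cells kept edgeR called 0 genes (1601 at an unadjusted p under 0.05), DESeq2 587 and the block 839. In ISC-like cells the 3 counts were 0, 22 and 803, in proliferating cells 0, 96 and 639, in cluster 1 0, 53 and 652, in Goblet/Paneth-like cells 31, 123 and 791, in EEC-like cells 2, 20 and 196, and in enterocyte-like cells 7, 533 and 678. The doublet, block with doublet, cluster 1 and cluster share settings were chosen after seeing the data. Single members are measured with 2 libraries a group at most.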

Other observations

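Pola1, the catalytic subunit of DNA polymerase alpha, had a level in an EEC-like cluster of the WT libraries close to that in the histone-led cluster 0. In the EEC-like cluster 14, led by Chgb, Chga, Tac1 and Tph1 of enterochromaffin cells, its level was 72.4 and 70.4 CPM without EIPA, 54.8 and 53.03 CPM with EIPA, 29.7 CPM without Dox and 33.01 CPM with Dox. In cluster 0 Pola1 had 54.96 to 61.9 CPM. The -Dox value rests on 16 UMIs. The EEC markers of EEC-like cells were also lower in -Dox and +Dox (5014 and 5755 CPM) than in the WT libraries (39582 to 48895 CPM). The part of this difference in the Pola1 levels was not tested. In the EEC-like clusters 11 and 17 Pola1 had 23.7 to 37.2 CPM and 10.3 to 35.1 CPM. Pola1 was chosen for this after its values were seen, and no test was made.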
